A study of Mus musculus with 28 samples.

Results

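Of the 40021 genes in the deposited expression table, 9 genes of the TNF superfamily were followed in microglia sorted from single mouse retinas before and after endotoxin. They were taken by symbol alone and comprised the ligands Tnf, Lta, Ltb and Tnfsf9 and the receptors Tnfrsf1a, Tnfrsf1b, Ltbr, Fas and Cd40. All 9 symbols were found once. The 28 retinas came from male Cx3cr1CreER:R26-tdTomato heterozygotes on a C57BL/6 background, all given topical tamoxifen, in which Cre driven by the Cx3cr1 locus switches on a red reporter, so that every group, naïve included, carried 1 disrupted Cx3cr1 allele. Live tdTomatohi DRAQ7- cells were sorted and sequenced as mRNA from 10 naïve, uninjected retinas and from retinas with endotoxin-induced uveitis (EIU), an inflammation that follows intravitreal lipopolysaccharide (LPS). There were 6 EIU retinas of 4 h, 5 of 18 h and 7 of 2 weeks. Experiment 1 supplied 6, 3, 4 and 4 of these retinas and experiment 2 supplied 4, 3, 1 and 3. The labels do not tie retinas to animals, so retinas of 1 group may be both eyes of 1 mouse and the p-values below measure the spread between retinas.

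Most TNF superfamily ligands are made as membrane-bound trimers, some of which are cut from the cell surface, and they act by clustering their receptors. Receptors with a cytoplasmic death domain, such as Fas and TNFR1 (Tnfrsf1a), can assemble caspase-activating complexes, whereas receptors such as TNFR2 (Tnfrsf1b), the lymphotoxin beta receptor (Ltbr) and CD40 recruit TRAF proteins and activate NF-kappa B. Microglia are a well-known source of TNF when LPS is sensed through Toll-like receptor 4.

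Values are RPKM, read counts scaled to transcript length and to the mapped reads of the library. The retinas had between 7510000 and 19700000 alignments, and between 6552 and 11825 genes at 1 RPKM or more. One read of a member corresponded to between 0.0133 RPKM (Tnfrsf1b at the highest depth) and 0.103 RPKM (Tnfsf9 at the lowest), taking the longest annotated transcript. Exact zeros need care, because 536 of the 3360 genes with a median over 10 RPKM were listed at 0 in at least 1 retina. In 7 retinas at least 50 of those genes were listed at 0, and all 7 belonged to experiment 1 (naïve 3, 4, 5 and 6, 4 h retina 2, 18 h retina 4 and 2-week retina 1). They are called the sparse retinas below, and calls of the 9 genes and counts of the lists are given with and without them where they differ. All 13 microglial markers had group medians of at least 1 RPKM in every group, 5 of them lower at 4 h and 6 lower at 18 h than in naïve retinas. Among 11 neutrophil markers only Csf3r reached a group median of 1 RPKM, and S100a8, S100a9 and Ly6g had a median of 0 in naïve and 4 h retinas. At 18 h the medians of S100a8 and S100a9 were 0.638 and 0.994 RPKM. The 9 monocyte markers summed to 0.123 to 4.87 RPKM in naïve retinas (median 0.952), 0.0377 to 32.7 at 4 h (median 8.70), 0.199 to 32.7 at 18 h (median 8.69) and 0.470 to 26.7 in 2-week retinas (median 1.22). Nr4a1 led that list at 4 h (median 1.73 RPKM) and Plac8 at 18 h (median 6.63 RPKM), while Ly6c2 and Chil3 had a median of 0 in naïve and 4 h retinas. The part of monocytes in the changes below was not tested. The 16 lymphocyte markers summed to 24.0 to 81.8 RPKM in naïve retinas, and EIU retinas had 6.69 to 18.3 (4 h), 53.1 to 169 (18 h) and 26.7 to 57.8 (2 weeks). Of these 16 genes, 14 had a median of 0 in naïve and in 4 h retinas, and 6 did at 18 h. Cd79b led that list in every group. Summed rod photoreceptor markers ranged from 1075 to 6007 RPKM over all retinas. Summed erythrocyte markers reached 735 RPKM in 4 h retina 5 and at most 67.9 RPKM in any other retina. That retina also had the highest monocyte sum at 4 h (32.7 RPKM) and the highest Tnf value (3291 RPKM). The part of blood cells in its values was not tested. In such sorted samples a smaller share of cells expressing a gene and less RNA per cell cannot be told apart.

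Tnf, Lta and Ltb lie side by side on chromosome 17 (GRCm38, GENCODE M21). Lta occupies 35203165 to 35205351 and Tnf 35199381 to 35202007, both on the minus strand and 1158 bases apart. Ltb occupies 35194439 to 35196320 on the plus strand, 3061 bases from Tnf. The sequences before their starts are shown because the 3 neighbours had very different levels after LPS. They are RefSeq promoter windows (GRCm38.p6), read 5′ to 3′ on the strand of each gene and ending before the first annotated exon base, with the motifs searched in capitals.
Tnf, chr17:35202008-35202257, minus strand: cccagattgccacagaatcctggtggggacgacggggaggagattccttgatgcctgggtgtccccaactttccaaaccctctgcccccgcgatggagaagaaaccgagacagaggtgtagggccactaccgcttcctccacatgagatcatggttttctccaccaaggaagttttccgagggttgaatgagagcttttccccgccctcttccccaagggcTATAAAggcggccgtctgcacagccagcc
Lta, chr17:35205352-35205601, minus strand: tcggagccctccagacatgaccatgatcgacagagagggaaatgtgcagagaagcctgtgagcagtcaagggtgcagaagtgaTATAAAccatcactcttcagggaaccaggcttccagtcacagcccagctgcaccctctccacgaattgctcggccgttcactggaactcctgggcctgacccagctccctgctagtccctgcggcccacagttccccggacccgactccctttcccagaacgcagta
Ltb, chr17:35194257-35194438, plus strand: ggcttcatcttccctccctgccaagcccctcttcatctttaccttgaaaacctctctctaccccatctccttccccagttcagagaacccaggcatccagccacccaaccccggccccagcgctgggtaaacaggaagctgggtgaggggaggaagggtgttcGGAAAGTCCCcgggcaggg
The capitals in Tnf and Lta are the TATA box letters TATAAA, starting 29 bases before the Tnf start and 167 bases before the Lta start. Those in Ltb are the only match to the kappa B consensus, searched on both strands, in the windows of the 7 members that had one, and it starts 87 bases before the RefSeq start of Ltb. Windows ran from 250 bases before to 50 bases after the start, and of 32851 such windows in the genome 8.46% held a kappa B match and 8.32% the TATA letters on the strand of the gene. The Tnfrsf1a, Tnfrsf1b, Ltbr and Fas windows held neither motif. Tnfsf9 lies on the same chromosome at 57105325 to 57107757 (plus strand) and Cd40 on chromosome 2 at 165055627 to 165072948 (plus strand). Ltbr (125306571 to 125313885, minus strand) and Tnfrsf1a (125349362 to 125362484, plus strand) are both on chromosome 6, Tnfrsf1b is on chromosome 4 (145213463 to 145246870, minus strand) and Fas on chromosome 19 (34290666 to 34327772, plus strand).

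Among the ligands, Tnf and Tnfsf9 went from at most 8.64 RPKM in naïve retinas to at least 291 RPKM at 4 h, while Lta and Ltb stayed near 0 throughout. Tnf, the founding member of the family and the ligand of both TNF receptors, was at 0 to 4.29 RPKM in naïve retinas (median 0.364). At 4 h it was at 291 to 3291 RPKM (median 1514). At 18 h the 5 retinas had 49.5, 8.98, 39.2, 21.2 and 9.94 RPKM, and at 2 weeks the range was 0.0514 to 13.2 (median 1.41). Every 4 h retina was above every 18 h retina, and every 18 h retina was above every naïve retina, whereas the 2-week values overlapped both. The fitted increase at 4 h was 9.26 on the log2(RPKM + 1) scale (SE 0.58, limma adjusted p = 4.6e-13), a 612-fold difference on that scale. At 18 h it was still 3.62 above naïve (SE 0.61, limma adjusted p = 0.00026), and 5.63 below the 4 h level (SE 0.68, limma adjusted p = 8.8e-07). From 18 h to 2 weeks Tnf fell by 3.08 (SE 0.65, limma adjusted p = 0.0054), to 0.54 above naïve (95% interval -0.58 to 1.66).

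Tnfsf9 encodes 4-1BBL, the ligand of the T cell costimulatory receptor 4-1BB. Its naïve range was 0 to 8.64 RPKM (median 3.31). The 4 h retinas had 1687 to 7486 RPKM (median 5449), the highest level of any of the 9 genes, and the 2 groups did not overlap. The fitted difference was 10.55 on the log2(RPKM + 1) scale (SE 0.70, limma adjusted p = 1.2e-12). At 18 h the retinas had 38.2, 31.6, 48.8, 0 and 16.0 RPKM, so 4 of 5 were above all naïve retinas and the remaining one, sparse retina 4, was listed at 0. The 18 h difference from naïve of 2.42 (SE 0.74) missed the threshold (limma adjusted p = 0.052). It passed without 18 h retina 4 (3.42, limma adjusted p = 0.0011) and without all 7 sparse retinas (2.39, limma adjusted p = 0.0024). Leaving out naïve retina 2, 7, 8 or 10 or 2-week retina 1 or 4 also brought it past the threshold (limma adjusted p 0.037 to 0.049). The fall from 18 h to 2 weeks was 2.34 (SE 0.79, limma adjusted p = 0.12), and 3.34 without 18 h retina 4 (limma adjusted p = 0.0038). Without all 7 sparse retinas it was 3.06 (limma adjusted p = 0.00026). The 2-week retinas, at 0 to 7.61 RPKM (median 2.51), overlapped the naïve range, with a difference of 0.08 (95% interval -1.27 to 1.44).

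Lta encodes lymphotoxin alpha, and Ltb the membrane subunit with which it forms the ligand of the lymphotoxin beta receptor. Lta reached 1 RPKM in 1 of 28 retinas (naïve 7, 1.09 RPKM), was at 0, 0, 0.0645, 0, 0.312 and 0.487 RPKM in the 6 retinas at 4 h, and was listed at 0 in 4 of 5 retinas at 18 h. Ltb reached 1 RPKM in 3 of 28 retinas (3.82 and 1.04 in naïve retinas and 3.56 at 2 weeks) and had at most 0.758 RPKM at 4 h. Both missed the filter for testing, which asked for 1 RPKM or more in 5 or more retinas, and were given no fold change. In the same 4 h retinas that held at least 291 RPKM of Tnf, its neighbours therefore stood below 1 RPKM. In the fit of both experiments the 7 other members passed the filter, and would have passed it without the 4 h retinas.

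**Figure D1:**
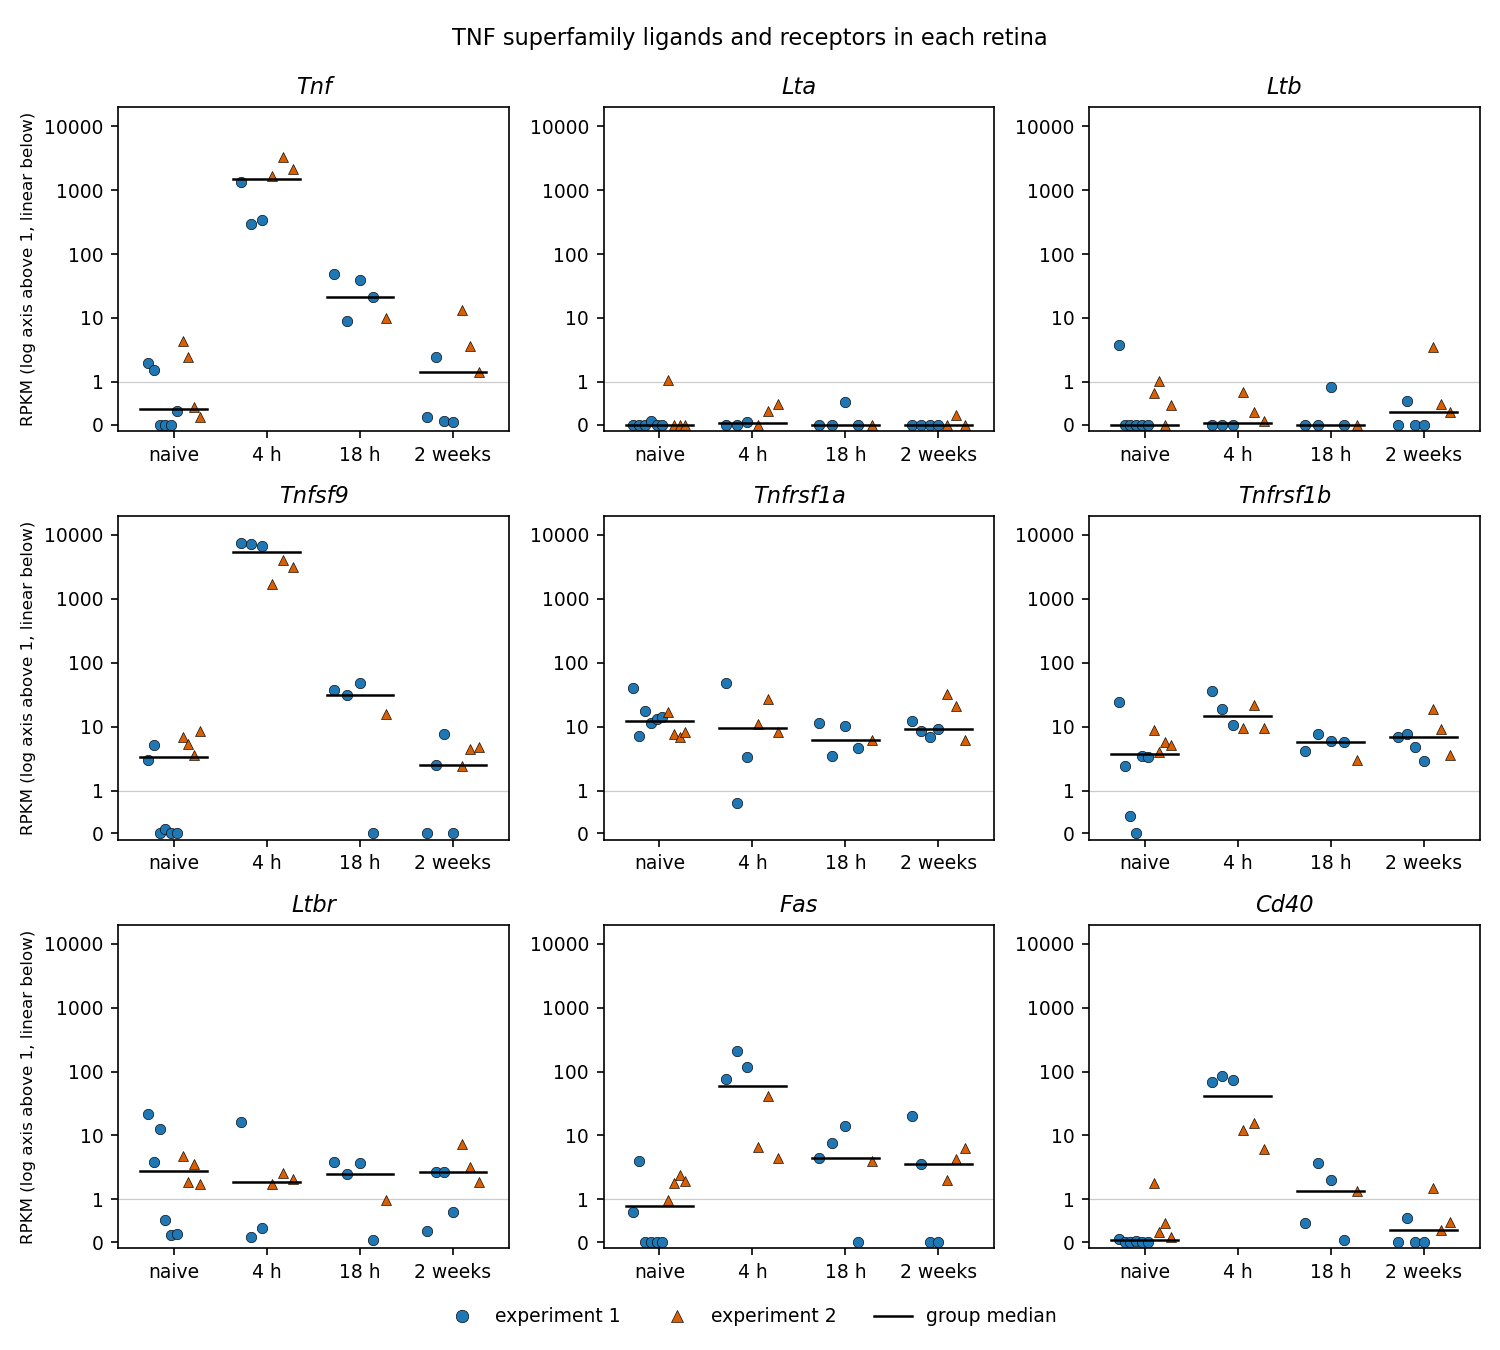
RPKM of the 9 genes in each of the 28 retinas, by group, on an axis that is logarithmic above 1 and linear below. Circles are experiment 1, triangles experiment 2 and bars group medians. Tnf and Tnfsf9 at 4 h lie between 291 and 7486 RPKM, clear of every naïve retina, whereas Lta and Ltb stay below 4 RPKM everywhere.

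The 5 receptors moved apart. Cd40 and Fas rose strongly at 4 h, Tnfrsf1b rose less, and Tnfrsf1a and Ltbr did not pass the test in any comparison. Cd40, the receptor through which T cell CD40 ligand licenses antigen-presenting cells, was at 0 to 1.79 RPKM in naïve retinas (median 0.0474). At 4 h it was at 6.20 to 84.7 RPKM (median 41.9), with no overlap. The increase was 4.64 on the log2(RPKM + 1) scale (SE 0.44, limma adjusted p = 4.2e-09). At 18 h the values of 0.457, 3.70, 2.00, 0.0517 and 1.35 RPKM were all below the lowest 4 h retina, and 2 of them were above all naïve retinas. The difference from naïve was then 0.87 (95% interval -0.08 to 1.83, limma adjusted p = 0.34), and the drop from 4 h passed the test (3.77, SE 0.52, limma adjusted p = 8.4e-06). At 2 weeks Cd40 was at 0 to 1.51 RPKM (median 0.271).

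Fas, the receptor of Fas ligand and a classical death receptor, was listed at 0 in 4 of 10 naïve retinas and had at most 3.93 RPKM in the others. At 4 h it was at 4.49 to 213 RPKM (median 59.4), above all naïve retinas in 6 of 6. The increase was 4.40 on the log2(RPKM + 1) scale (SE 0.71, limma adjusted p = 5.3e-05). The 18 h values of 4.47, 7.73, 14.1, 0 and 3.93 RPKM overlapped both the naïve and the 4 h range, with a difference from naïve of 1.48 (95% interval -0.07 to 3.02, limma adjusted p = 0.31). The difference between 4 h and 18 h was 2.93 (SE 0.84, limma adjusted p = 0.032) and fell short without the sparse retinas (1.85, limma adjusted p = 0.11). It also fell short when any one of 7 retinas was left out, 4 h retinas 1, 2, 3 and 5 and 18 h retinas 1, 4 and 5, with limma adjusted p between 0.062 and 0.13. At 2 weeks Fas ranged from 0 to 20.2 RPKM (median 3.56), and 3 of 7 retinas were above all naïve retinas. The difference from naïve was 1.04 (95% interval -0.35 to 2.43, limma adjusted p = 1).

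The 2 TNF receptors differed from each other. Tnfrsf1a, which encodes the broadly expressed TNFR1, had 7.02 to 40.9 RPKM in naïve retinas (median 12.3) and 0.703 to 48.1 at 4 h (median 9.66), a difference of -0.40 (95% interval -1.46 to 0.66). At 18 h it was at 11.4, 3.53, 10.3, 4.69 and 6.11 RPKM, and at 2 weeks at 6.16 to 32.2 (median 9.20). Tnfrsf1b, which encodes TNFR2, had 0 to 24.5 RPKM in naïve retinas (median 3.76) and 9.47 to 35.6 at 4 h (median 14.9). Of 10 naïve retinas, 9 lay below the lowest 4 h retina, and naïve retina 1 was above all 4 h retinas but 1. The increase at 4 h was 1.84 (SE 0.49, limma adjusted p = 0.014). This call was lost without the sparse retinas (1.10, limma adjusted p = 0.12), without 4 h retina 1 (1.61, limma adjusted p = 0.058), in experiment 1 alone (2.48, limma adjusted p = 0.088) and in experiment 2 alone (1.02, limma adjusted p = 0.14). Tnfrsf1b was at 4.14, 7.81, 6.04, 5.68 and 2.97 RPKM at 18 h, below every 4 h retina, and at 2.93 to 18.6 (median 6.85) at 2 weeks.

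Within a retina, the log2 ratio of Tnfrsf1b to Tnfrsf1a, each with 1 RPKM added, averaged -1.53 ± 1.24 in naïve retinas (SD, n = 10) and 0.71 ± 1.55 at 4 h (SD, n = 6). The difference of 2.24 passed a two-sided exact permutation test over retinas (p = 0.00087, adjusted p = 0.0026 over the 3 times). Its size depended on the constant added, being 3.01 with 0.1 RPKM and 0.89 with 10 RPKM, both past the threshold (exact permutation test, adjusted p = 0.012 and 0.0045). It was 0.88 without the sparse retinas (exact permutation test, adjusted p = 0.026). In experiment 1 it was 3.65 (exact permutation test, p = 0.012) and in experiment 2 it was 0.52 (exact permutation test, p = 0.086). The ratio at 18 h was 1.21 above naïve (exact permutation test, p = 0.078) and that at 2 weeks 0.79 above (exact permutation test, p = 0.14).

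**Figure D2:**
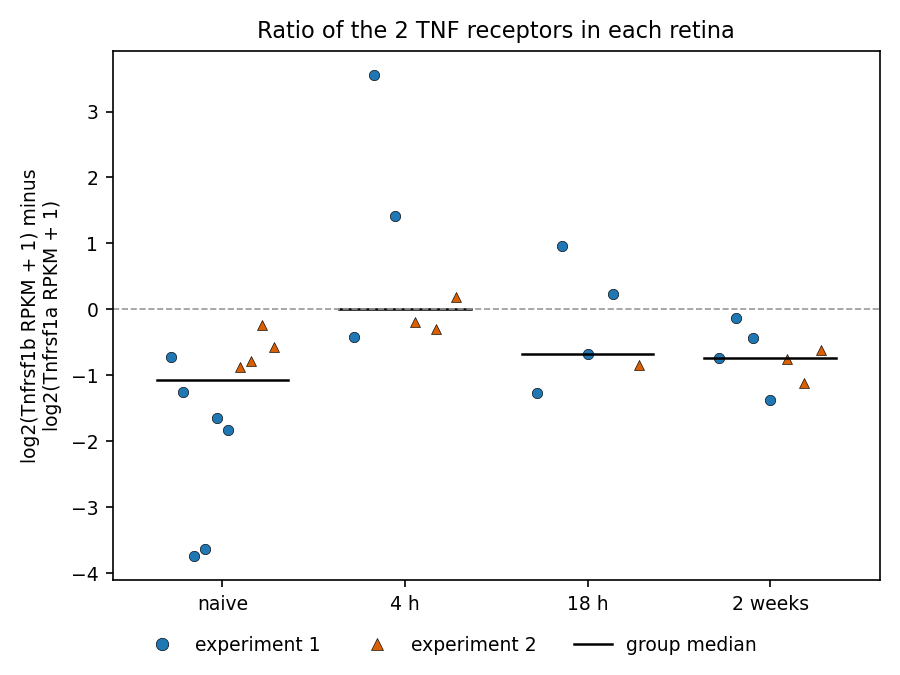
Log2 ratio of Tnfrsf1b to Tnfrsf1a in each retina (y axis, log2 units, 1 RPKM added to both), by group, with circles for experiment 1, triangles for experiment 2 and bars for medians. Naïve retinas all lie below 0, at -3.74 to -0.24, and 4 h retinas lie between -0.42 and 3.56.

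Ltbr, the receptor of the lymphotoxin heterotrimer, was spread widely within groups: 0.164 to 21.5 RPKM in naïve retinas (median 2.74) and 0.110 to 16.1 at 4 h (median 1.90). At 18 h it was at 3.82, 2.49, 3.73, 0.0374 and 0.977 RPKM. The 2-week range was 0.257 to 7.24 (median 2.68). The difference from naïve was -0.33 at 4 h (95% interval -1.55 to 0.89). It was -0.46 at 18 h (95% interval -1.75 to 0.84), and the 2-week difference was -0.28 (95% interval -1.45 to 0.88).

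Over all 13164 genes tested, 3.68% were called higher and 4.39% lower at 4 h, a call being a limma adjusted p of at most 0.05 with a difference of at least 2-fold. Of the 7 tested members 5 were called higher at 4 h and 0 lower. At 18 h 2.84% of genes were called higher and 1.85% lower, and of the members only Tnf was called. All 4 h retinas were above all naïve retinas for 1.65% of genes and for 4 of the 7 members, Tnf, Tnfsf9, Fas and Cd40. All 18 h retinas were above all naïve retinas for 2.05% of genes and among the members for Tnf. Between 4 h and 18 h, 2.51% of genes and 4 members (Tnf, Tnfsf9, Cd40 and Fas) were called higher at 4 h. All 4 h retinas were above all 18 h retinas for 2.77% of genes and for Tnf, Tnfsf9, Cd40 and Tnfrsf1b. From 18 h to 2 weeks 1.55% of genes were called lower, Tnf among them, and 1.10% higher, with 0 members. At 2 weeks 0.00760% of genes, 1 gene, differed from naïve, with 0 members called by limma, and at an unadjusted p under 0.05 there were 378 genes and 0 members. The median difference of all genes at 4 h was -0.11, or -0.28 after rescaling to equal summed RPKM, which turned the split of 485 genes higher and 578 lower into 409 and 1001. At 18 h it turned 374 and 244 into 226 and 469. Without the sparse retinas the splits were 462 and 1146 at 4 h and 525 and 532 at 18 h. After this rescaling 5 members were called at 4 h and 1 at 18 h.

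**Figure D3:**
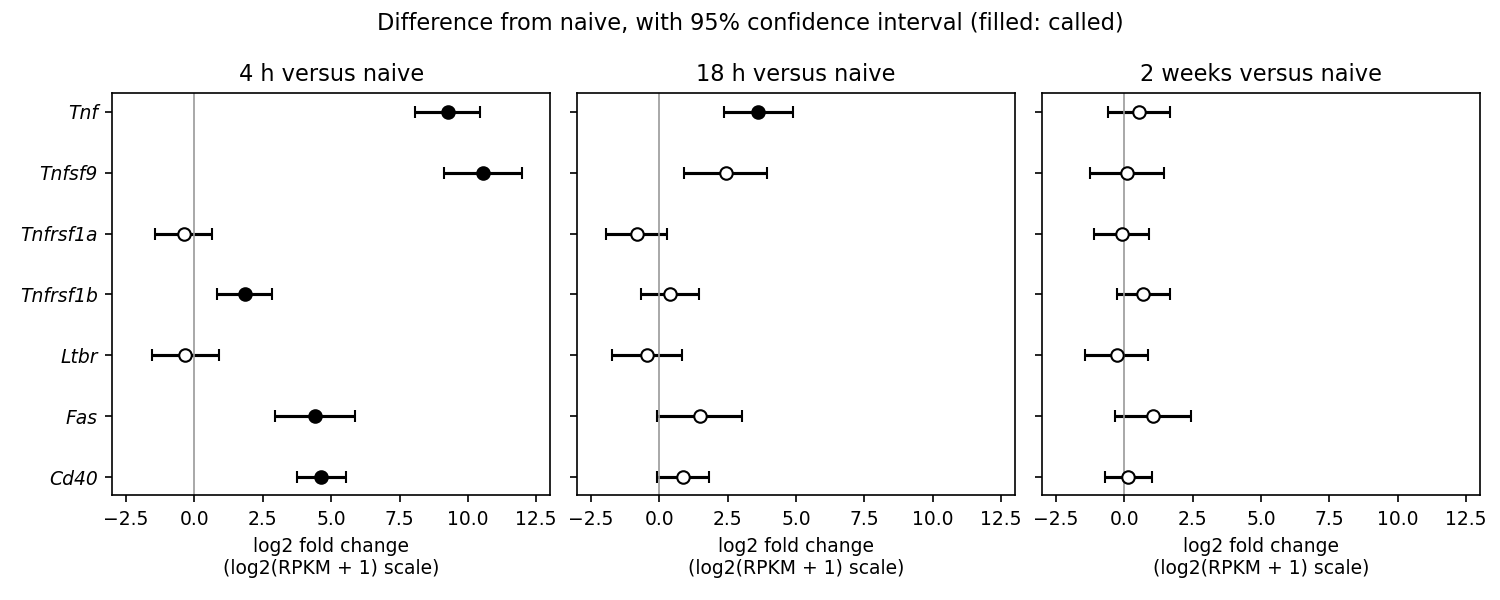
Fitted log2 fold change of the 7 tested members from naïve at each time after LPS (x axis, log2(RPKM + 1) scale), with 95% confidence intervals. Filled points were called, 5 at 4 h, Tnf at 18 h and none at 2 weeks.

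The 4 h values were also compared between the experiments. Cd40 was at 67.9, 84.7 and 74.0 RPKM at 4 h in experiment 1 and at 12.2, 15.9 and 6.20 in experiment 2. The ranges did not overlap, and the 4 h increase was 6.23 in experiment 1 (limma adjusted p = 1.4e-07) and 2.93 in experiment 2 (limma adjusted p = 0.00061). Within either experiment alone Cd40 passed the filter only through the 4 h retinas, so both calls are given as a description. Cd40 was the only member whose 4 h increase differed between the experiments in the test of the difference itself (-3.30 for experiment 2 minus experiment 1, SE 0.63, limma adjusted p = 0.027), a test that 0.0988% of genes passed. Without the sparse retinas, all from experiment 1, the difference was -3.19 (limma adjusted p = 0.22). It also missed the threshold without naïve retina 2, 7 or 9 or without 4 h retina 2, 3, 4 or 6 (limma adjusted p 0.050 to 0.20).

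Fas was at 76.6, 213 and 118 RPKM at 4 h in experiment 1 and at 6.58, 42.2 and 4.49 in experiment 2. Tnfsf9 was at 7486, 7330 and 6796 RPKM against 1687, 4102 and 3168. Tnf had the opposite order, with 1351, 291 and 340 RPKM in experiment 1 and 1678, 3291 and 2161 in experiment 2. For these 3 genes, too, the 4 h values of the experiments did not overlap. The share of all genes that separate in this way was not counted, and 3 retinas against 3 separate easily. Naïve retinas also differed between the experiments, with 236 of 13164 genes at a limma adjusted p of at most 0.05. The median difference of all genes, experiment 2 minus experiment 1, was 0.40. For Tnfsf9 it was 1.98 in naïve retinas (limma adjusted p = 0.16). The part of this in the 4 h differences was not tested. The differences of the increases were -4.30 for Fas (limma adjusted p = 0.35), -3.34 for Tnfsf9 (0.79) and 1.48 for Tnf (1), none past the threshold. Each of these 4 genes was called higher at 4 h within experiment 1 and within experiment 2, for Cd40 with the limit given above. Only 1 retina at 18 h came from experiment 2, so the 18 h result for Tnf rests on experiment 1, where it was 4.14 (limma adjusted p = 0.00064). In experiment 2 it was 2.22 (limma adjusted p = 0.26).

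**Figure D4:**
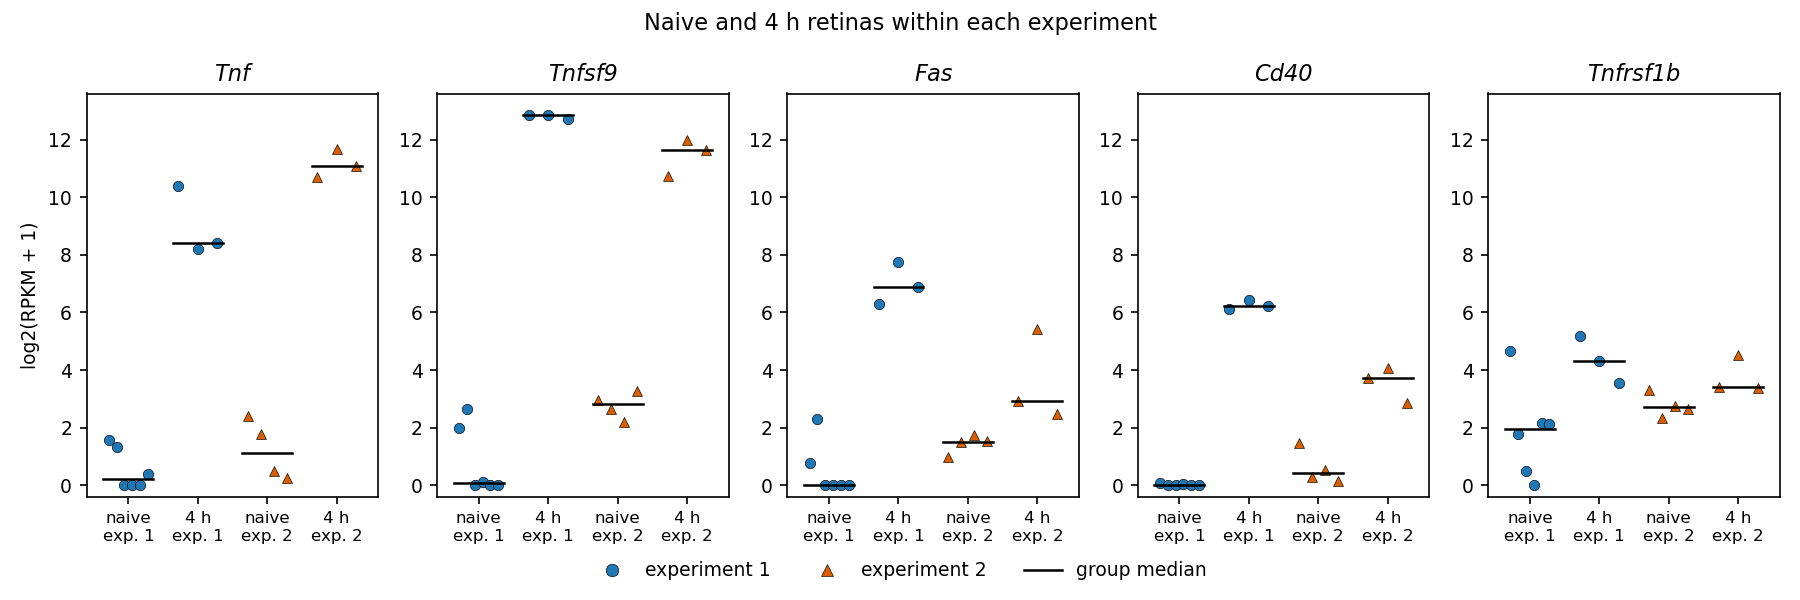
Levels of 5 members on the log2(RPKM + 1) scale in naïve and 4 h retinas of experiment 1 (circles) and experiment 2 (triangles), with bars for medians. At 4 h Tnfsf9, Fas and Cd40 are higher in experiment 1 and Tnf is higher in experiment 2.

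Over the 28 retinas, on the log2(RPKM + 1) scale, the member levels followed each other to different degrees, as a description of points that share group, experiment and library. Tnfsf9 had a Pearson r of 0.93 with Cd40 and 0.92 with Tnf. Fas had 0.85 with Cd40. Tnfrsf1a and Ltbr had 0.65 with each other and between -0.22 and 0.30 with the other members. The 3 genes most like Tnf were Tlr2 (r = 0.95), a receptor for bacterial lipoproteins, Il1b (0.95) and Il12b (0.94), which encode secreted cytokines. The closest gene was Il12b for Tnfsf9 (0.97), Exoc3l4 for Cd40 (0.96) and Il27, a cytokine subunit gene, for Fas (0.94). For the receptors with smaller differences it was Ctbp1 for Tnfrsf1a (0.87), Gramd1a for Tnfrsf1b (0.86) and Rnf10 for Ltbr (0.83).

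The rest of the family was described from lists of 18 ligands and 28 receptors. Of the ligands 17 were in the table and 8 were tested. Of all genes tested, 3.68% were called higher and 4.39% lower at 4 h, and 2.84% and 1.85% at 18 h. At 4 h 3 ligands were called higher and 1 lower, with a median over the list of 0.15 (all genes -0.11). Without the sparse retinas 3 were called higher and 2 lower, and the median was -0.28 (all genes -0.31). Of the 12675 genes in that fit, 462 were called higher and 1146 lower at 4 h, and 525 and 532 at 18 h. Cd70, a ligand of the T cell receptor CD27, was listed at 0 in all 10 naïve retinas and was at 0 to 6.78 RPKM at 4 h (median 2.21). It reached 1 RPKM in 1 retina outside the 4 h group, so it passed the filter only through that group. Tnfsf8, which encodes CD30 ligand, fell by 1.67 (SE 0.43, limma adjusted p = 0.0092), from 0.0254 to 6.70 RPKM in naïve retinas to 0 to 0.826 at 4 h. Tnfsf13b, which encodes the B cell survival factor BAFF, was at 9.97 to 23.8 RPKM at 4 h and 1.59 to 26.2 in naïve retinas, and was not called. At 18 h Tnf was the 1 ligand called, and 2 ligands, Tnf and Tnfsf9, were called without the sparse retinas.

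Of the 28 receptors 16 were tested. At 4 h 5 of them were called higher and 2 lower (3.68% and 4.39% of all genes), with a median of -0.22. Beyond Cd40, Fas and Tnfrsf1b, the increases were those of Tnfrsf12a and Tnfrsf9. Tnfrsf12a, the receptor of TWEAK, rose from 0 to 6.69 RPKM in naïve retinas to 5.22 to 76.3 at 4 h (log2 difference 2.87, SE 0.60, limma adjusted p = 0.0015). Tnfrsf9 encodes 4-1BB, the receptor of the Tnfsf9 product, and had at most 0.412 RPKM in naïve retinas. It was at 0.0412 to 11.0 RPKM at 4 h (log2 difference 1.61, SE 0.42, limma adjusted p = 0.010) and at 0.259 to 10.4 at 18 h (1.79, SE 0.44, limma adjusted p = 0.012), where it was the 1 receptor called. The 18 h call was lost without 18 h retina 1 or 3. Tnfrsf9 reached 1 RPKM in 3 retinas outside the 4 h group and in 4 outside the 18 h group, so that it passed the filter only with the groups in which it is high, and both calls are given as a description. The lymphocyte marker Nkg7, a granule gene of cytotoxic cells, was also higher at 18 h. It went from 0 in all naïve and all 4 h retinas to 5.77 to 86.4 RPKM. Nkg7 passed the filter only through the 18 h group. Of the 3 tested lymphocyte markers, Il7r was called lower at 18 h (-2.32, limma adjusted p = 0.0074) and Cd79b was not called (0.04). The part of lymphocytes in the 18 h values of Tnfrsf9 was not tested.

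The receptors called lower at 4 h were Tnfrsf21 and Tnfrsf11a. Tnfrsf21, a death domain receptor also known as DR6, was at 17.4 to 317 RPKM in naïve retinas and 5.24 to 35.8 at 4 h (-2.24, SE 0.68, limma adjusted p = 0.034), and was not called without the sparse retinas (-0.98, limma adjusted p = 0.32). Tnfrsf11a, which encodes RANK, was at 4.31 to 13.8 RPKM and then 0.879 to 6.89 (-1.29, SE 0.34, limma adjusted p = 0.013). Without the sparse retinas 4 receptors were called higher and 4 lower at 4 h, and 1 higher and 1 lower at 18 h. Of the 12675 genes in that fit, 462 were called higher and 1146 lower at 4 h, and 525 and 532 at 18 h.

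**Figure D5:**
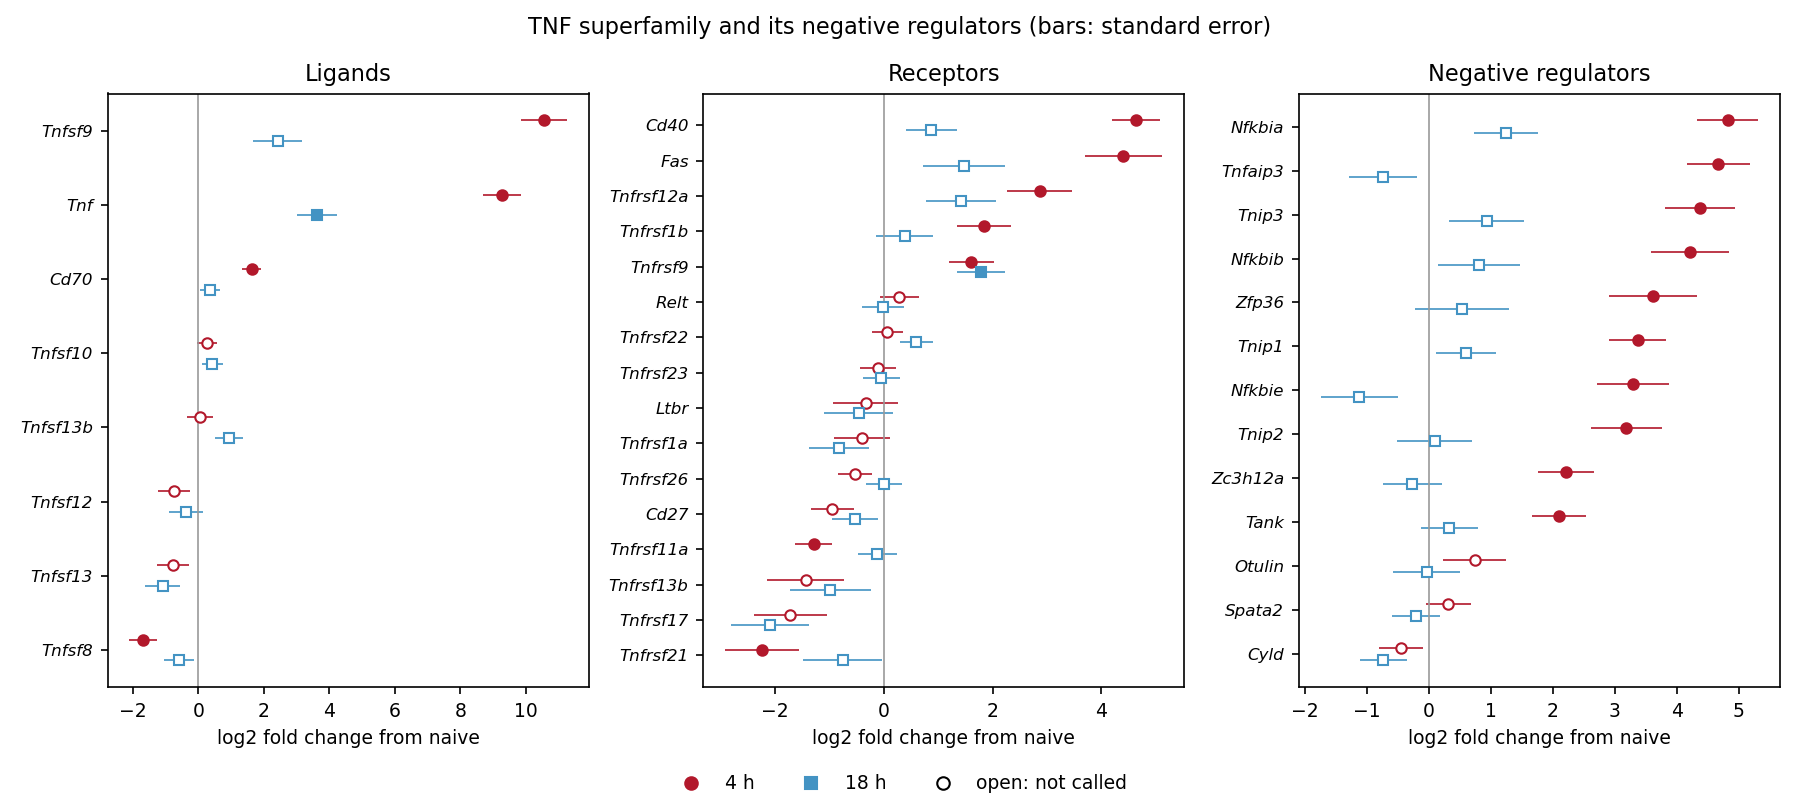
Log2 fold change from naïve at 4 h (circles) and 18 h (squares), with standard errors, of the tested TNF superfamily ligands, receptors and negative regulators, on separate x axes. Filled symbols were called. Of 13 negative regulators 10 are filled at 4 h and 0 at 18 h. The value of Cd70 is set against naïve retinas all listed at 0 and gives no fold.

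Genes that restrain TNF signalling were listed too, and whether TNF acted on them was not tested. This list, like the others, was chosen with earlier results of these data known. Of 13 listed negative regulators 10 were called higher at 4 h (3.68% of all genes), with a median of 3.29 (all genes -0.11). At 18 h 0 were called by limma, with a median of 0.09. The 10 were Tnfaip3, Tnip1, Tnip2, Tnip3, Nfkbia, Nfkbib, Nfkbie, Zfp36, Zc3h12a and Tank, and Cyld, Otulin and Spata2 were not called. One of them, Tnip3, passed the filter only with the 4 h retinas. The same 10 genes were called higher at 4 h than at 18 h, but 3 of 12 were in experiment 1 alone and 8 of 11 in experiment 2 alone. The count for 4 h against naïve was 10 of 13 without the sparse retinas, 7 of 12 in experiment 1 and 9 of 11 in experiment 2. Over all genes, 462 of 12675, 252 of 11326 and 368 of 11288 were called higher in these fits. Nfkbia, which encodes the NF-kappa B inhibitor I kappa B alpha, had the largest increase of this list, from 6.49 to 113 RPKM in naïve retinas to 508 to 2846 at 4 h (4.82, SE 0.49, limma adjusted p = 1.3e-08). At 18 h it was at 53.7 to 269 RPKM. Tnfaip3, which encodes the ubiquitin-editing enzyme A20, was at 85.0 to 171 RPKM at 4 h against at most 9.17 in naïve retinas, and at 0.0853 to 3.81 RPKM at 18 h. For this gene the naïve and 4 h groups did not overlap and the naïve and 18 h groups did.

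Of 20 adaptors and ligases that couple receptors to kinases, 3 were called higher at 4 h and 0 lower (3.68% and 4.39% of all genes). Their median was 0.13, and 0 were called at 18 h by limma. The 3 were Birc3, Traf1 and Traf3, of which Traf1 reached 1 RPKM in 2 retinas outside the 4 h group and so passed the filter only through it. Without the sparse retinas 4 were called higher and 1 lower at 4 h, and 1 higher at 18 h. Of the 12675 genes in that fit, 462 were called higher and 1146 lower at 4 h, and 525 higher at 18 h. Birc3, which encodes the ubiquitin ligase cIAP2, had the largest increase, from 0.678 to 12.7 RPKM to 35.8 to 89.2 at 4 h (3.13, SE 0.44, limma adjusted p = 5.6e-06). Tradd, Ripk1, Traf2 and the kinase gene Ikbkb were tested and not called.

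Of 10 genes of the death receptor pathway, 2 were called higher at 4 h (3.68% of all genes), Daxx and Cflar. Daxx, a Fas-binding nuclear protein gene, had the larger change (1.88, SE 0.48, limma adjusted p = 0.0091), with 0 to 7.64 RPKM in naïve retinas and 2.16 to 22.6 at 4 h. It was not called without the sparse retinas (1.36, limma adjusted p = 0.051), in experiment 1 alone (2.42, limma adjusted p = 0.073) or in experiment 2 alone (1.30, limma adjusted p = 0.10). Cflar, which encodes the caspase-8 inhibitor c-FLIP, went from 7.03 to 10.7 RPKM to 15.4 to 32.1, without overlap. Casp8 itself was below its naïve level by 0.87 on the log2 scale (limma adjusted p = 0.022), a difference of under 2-fold. At 18 h 2.84% of all genes were called higher, and 1 of this list, Mlkl, the effector of necroptosis (1.41, SE 0.30, limma adjusted p = 0.0033). It was at 0 to 4.31 RPKM then and at most 0.914 in naïve retinas. Only 1 retina outside the 18 h group reached 1 RPKM, so Mlkl passed the filter through the group in which it is called.

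Of 6 genes that process or shed TNF, 1 was called higher and 1 lower at 4 h (3.68% and 4.39% of all genes). Rhbdf2, a cofactor of the TNF-shedding protease ADAM17, was higher (1.95, SE 0.41, limma adjusted p = 0.0015). Adam10 was lower (-1.44, SE 0.28, limma adjusted p = 0.00060). Adam17 was at 5.92 to 15.5 RPKM at 4 h and 6.33 to 17.5 in naïve retinas, and was not called. At 18 h 0 of the 6 were called by limma.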

How the data were processed

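The authors trimmed and aligned reads to mm10 with STAR 2.5.3a, quantified Ensembl transcripts by expectation maximisation in Partek and deposited 1 RPKM value per gene and retina with the number of alignments. That method can divide a read among genes, and the library kit did not mark strand. The authors' 2 tables of comparisons hold p-values, ratios and fold changes and were not used.

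Values were taken as log2(RPKM + 1). The 13164 genes that reached 1 RPKM in 5 or more retinas were fitted once with limma 3.58.1 in R 4.3.3 over the 4 groups. The variance was allowed to follow mean level, and p-values were adjusted over all these genes by Benjamini and Hochberg. Differences between the experiments were interaction terms. The code was tested on simulated data. Figures were drawn with Python 3.11.15 and matplotlib 3.10.9. The members and lists were chosen with earlier results of these data known. Named genes are the members, called ligands and receptors, the largest rise and fall among called genes of each other list, the genes most correlated with each member and leading markers. Others were named after their values were seen. Alternatives covered pseudocounts, filters, covariates, scalings, variance models, each experiment alone and each retina left out. Removal of the 7 sparse retinas was chosen after seeing the data.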

Additional observations from a re-analysis of the deposited data

Results flagged for a closer look

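Of 4 results that stood apart, 3 were single retinas far from the rest of their group on the log2(RPKM + 1) scale, of 28 combinations of member and group examined by Dixon's test, in which chance marks about 1 group in 20. In 18 h retina 4 Tnfsf9 was listed at 0 RPKM, against 16.0 RPKM in the next lowest of the 5 retinas. This retina is one of the sparse retinas. Tnfsf9 was not called at 18 h with all retinas and was called without this one (3.42, limma adjusted p = 0.0011). Leaving out some single naïve or 2-week retinas had the same effect on the call. In naïve retina 1 Tnfrsf1a was at 40.9 RPKM, against 17.7 RPKM in the next highest of 10. The same retina had the highest naïve values of Tnfrsf1b, Ltbr and Ltb, at 24.5, 21.5 and 3.82 RPKM. In naïve retina 7 Cd40 was at 1.79 RPKM, against 0.445 RPKM in the next highest. It was also the one retina in which Lta reached 1 RPKM.

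The other one was the difference between the experiments in the 4 h increase of Cd40, -3.30 on the log2 scale, which passed the interaction test with a limma adjusted p of 0.027.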

How the results depend on the processing

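The 7 tested members gave 42 results, each under up to 15 alternatives and 28 fits without 1 retina. No member result reversed among these fits. Over all these fits 1710 member values kept their side of the threshold, 33 lost it and 20 gained it, and 9 uncalled values changed sign and moved by more than 1 SE. Tnf, Tnfsf9, Fas and Cd40 at 4 h were called in all 15 alternatives, and Tnfrsf1b in 11 of 15 (limma adjusted p 0.0028 to 0.14). With the filter at 5 RPKM, Fas and Cd40 entered the fit only through the 4 h retinas. The same held for Cd40 within either experiment alone, so these calls are given as a description. Tnf at 18 h was called in 13 of 15. The difference between experiments was not fitted with the experiment covariate, within 1 experiment or on untransformed RPKM.

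Members called at 18 h numbered 2 rather than 1, and ligands 2 rather than 1, with a pseudocount of 10, the filter at 5 RPKM, the experiment covariate, quantile normalisation and without the sparse retinas. Both counts were 0 in experiment 2 alone and on untransformed RPKM. Receptors at 18 h were 0 rather than 1 with a pseudocount of 10, the filter at 5 RPKM and untransformed RPKM, and 2 without the sparse retinas. Over all genes, the 374 called higher and 244 lower at 18 h became 264 and 74 with a pseudocount of 10. They were 351 and 226, of 7315 genes, with the filter at 5 RPKM. The experiment covariate gave 469 and 288, quantile normalisation 372 and 225, and untransformed RPKM 507 and 163. At 4 h, ligands called fell from 4 to 2 with a pseudocount of 10 and in experiment 1 alone, and receptors from 7 to 3 with a pseudocount of 10 and to 4 in experiment 1 alone and on untransformed RPKM. Calls over all genes fell as well, from 485 higher and 578 lower at 4 h to 241 and 175 with a pseudocount of 10. They were 252 and 162, of 11326 genes, in experiment 1 alone, and 488 and 323 on untransformed RPKM. Members lower at 2 weeks than at 18 h numbered 2 with quantile normalisation and without the sparse retinas, and 0 in experiment 2 alone and on untransformed RPKM. Of all genes, the 204 called lower at 2 weeks than at 18 h became 230 with quantile normalisation. Without the sparse retinas they were 477, and on untransformed RPKM 365. The difference between experiments was called for 0 members with a pseudocount of 0.1, the filter at 5 RPKM and without the sparse retinas, and for 2 with a pseudocount of 10. The 4 h receptor ratio was 0.52 in experiment 2 alone, short of the threshold. The cause of these shifts was not tested, beyond fewer retinas in the fits of 1 experiment.

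With each retina left out, members called were 4 to 5 at 4 h, 1 to 2 at 18 h, 0 to 0 at 2 weeks, 3 to 4 for 4 h against 18 h, 1 to 2 for 2 weeks against 18 h and 0 to 1 for the difference between experiments. Ligands called were 4 to 5 at 4 h and 1 to 2 at 18 h, and receptors 5 to 7 and 0 to 2. The receptor ratio differed by 1.67 to 2.46 at 4 h, 0.89 to 1.45 at 18 h and 0.54 to 0.93 at 2 weeks.

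Retinas with the same replicate number shared only a number: over 34 pairs their deviations correlated at -0.33 to 0.70 (median 0.04), 15 over 0.1. With the replicate block 5 members were called at 4 h, 2 at 18 h (2 ligands, 0 receptors), 2 at 2 weeks against 18 h, and 0 for the difference between experiments.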

Other observations

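Receptors of B cell cytokines were present in these sorted cells. Tnfrsf17, which encodes BCMA, was at 0 to 24.5 RPKM in naïve retinas (median 12.4), 0 to 8.61 at 4 h (median 1.15), 0 to 3.82 at 18 h (median 0.326) and 5.38 to 34.5 at 2 weeks (median 13.3). Every 2-week retina was above every 18 h retina, a separation that was not counted over all genes. The difference of 2.93 (SE 0.76) was called (limma adjusted p = 0.028), as were increases for 1.10% of genes. Its difference from naïve was -2.09 at 18 h (limma adjusted p = 0.089) and 0.84 at 2 weeks (limma adjusted p = 1). Without the sparse retinas the 18 h difference was called (-3.02, limma adjusted p = 0.00046). The B cell markers Cd79a and Ms4a1 had a median of 0 in every group, while Cd79b was at 20.2 to 81.3 RPKM in naïve retinas. Tnfrsf13b, another such receptor gene, was at 2.66 to 33.5 RPKM in naïve retinas and 0.0311 to 12.6 at 18 h. With all retinas it was not called against naïve at any time. Tnfrsf17 and Tnfrsf13b were named after their values were seen.

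Around Tnf, the protein-coding neighbours within 25 kb were also read. Aif1, the gene of the microglial protein Iba1, lies 23313 bases away and was lower at 4 h by 1.44 on the log2 scale (limma adjusted p = 0.0060), with 140 to 531 RPKM against 251 to 1321 in naïve retinas. Lst1, 10942 bases away, was at 5.85 to 116 RPKM at 4 h and 5.94 to 245 in naïve retinas, and was not called. Nfkbil1, on the other side, had at most 5.09 RPKM at 4 h. Gm16181, a gene annotated as protein-coding that lies within Nfkbil1 on the other strand, was at 0.157 to 6.79 RPKM at 4 h and at most 0.396 in naïve retinas (1.36, limma adjusted p = 0.0011). It had at most 0.152 RPKM at 2 weeks and a median of 0.426 at 18 h. It therefore passed the filter only through the 4 h group, and its call is given as a description. Reads of those overlapping genes cannot be told apart without strand.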
